A study of Mus musculus with 6 samples.

Results

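The cells described here are the dividing keratinocytes of mouse skin, taken from the CD45-negative sort of a droplet single-cell RNA-seq study of mice that lack an upstream enhancer of Il2ra (UP_Del). A barcode was kept with 500 or more unique molecular identifiers (UMIs, each standing for 1 captured transcript), 300 or more genes and a mitochondrial share of no more than 10%. A kept barcode was a keratinocyte when Krt5 and Krt14, the keratins of basal epithelium, made up at least 0.5% of its UMIs and Col1a1, the main fibroblast collagen, had at most 5 UMIs. Cycling keratinocytes were then chosen by measured values, the raw UMIs of Mki67, Top2a and Cdk1, which together had to reach 3. This gave 439 cycling keratinocytes of 8666 keratinocytes, among 23796 kept CD45-negative barcodes and 48101 barcodes in all 6 libraries.

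Skin came from UP_Del mice with alopecia, UP_Del mice without alopecia and WT mice. All were untreated adult females aged 17 to 18 weeks, and the genotype field reads C57/BL6 for every library. The skin was shaved, stripped of its hypodermis and digested with enzymes, and live cells were sorted by CD45, the pan-leukocyte marker, into a positive and a negative library per group. Each group is therefore 1 CD45-negative library, the number of mice behind it is not given in the sources used here, and no difference between groups has a replicate check: every interval below is a 95% interval that covers counting error only. Il2ra, the gene of the high-affinity interleukin-2 receptor subunit, had 0 UMIs in the cycling keratinocytes of each library, so the edited gene gives no check of the labels in these cells. The CD45-negative libraries held 7123 barcodes in alopecia, 16751 in no alopecia and 4575 in WT skin, of which 27.4% in alopecia, 6.18% in no alopecia and 22.3% in WT were over the mitochondrial limit. Any pair of the 6 libraries shared 24 to 228 barcode sequences, or 0.719% to 2.57% of the smaller library.

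Epidermis and hair follicle are renewed by division in several places. Basal cells divide along the basement membrane and feed the suprabasal layers of the interfollicular epidermis, the bulge holds follicle stem cells that are mostly quiescent outside early hair growth, and during growth the matrix at the follicle base divides fast under Shh and Wnt signals to build the hair shaft and inner root sheath. Krt10 marks suprabasal cells, Krt79 the upper follicle and its duct, Cd34 and Lgr5 the bulge and lower follicle, and Shh and Msx2 the matrix. In dividing cells, genes of DNA replication are raised in S phase by E2F factors, and genes of mitosis are raised in G2 and M phase through promoters that often carry CCAAT boxes and a cell cycle genes homology region (CHR, TTTGAA).

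The 3 genes of the rule show this promoter layout. The 150 bases that lead up to the first-listed RefSeq start (GRCm38.p6, minus strand, read 5′ to 3′) are given for them. Capitals mark TTTGAA and CCAAT on either strand (reverse complements TTCAAA and ATTGG).
Mki67, chr7:135716380-135716529: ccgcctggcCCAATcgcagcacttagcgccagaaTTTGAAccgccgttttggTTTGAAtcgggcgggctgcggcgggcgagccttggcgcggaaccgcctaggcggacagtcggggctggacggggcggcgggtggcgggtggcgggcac
Top2a, chr11:99024190-99024339: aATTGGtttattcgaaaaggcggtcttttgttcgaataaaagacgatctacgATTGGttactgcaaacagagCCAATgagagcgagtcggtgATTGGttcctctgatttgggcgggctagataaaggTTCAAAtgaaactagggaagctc
Cdk1, chr10:69352913-69353062: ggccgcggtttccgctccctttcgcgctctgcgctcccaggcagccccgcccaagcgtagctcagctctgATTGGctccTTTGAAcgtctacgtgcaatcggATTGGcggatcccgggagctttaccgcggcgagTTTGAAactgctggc
Mki67, a coat protein of mitotic chromosomes, had 2 CHR matches and 1 CCAAT match in this stretch. Top2a, the topoisomerase that untangles sister chromatids, had 1 and 4, and Cdk1, the kinase that starts mitosis, had 2 and 2. Over the 250 bases before the first-listed start, TTTGAA was found in 3008 of 20267 promoters (14.8%), in 21 of the 58 matched promoters of the G2 and mitosis list with the rule's genes (36.2%) and in 5 of 42 of the S phase list (11.9%). CCAAT was found in 35.3% of all promoters, in 75.9% of the G2 and mitosis list and in 59.5% of the S phase list. The E2F words TTTGGCGC or TTTCGCGC were found in 0.775%, 3.45% and 11.9% of these sets, in the same order. A match describes letters, not binding.

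The cycling keratinocytes numbered 63 in alopecia, 343 in no alopecia and 33 in WT skin. They made up 5.31% (4.11 to 6.75) of keratinocytes in alopecia skin, 4.97% (4.47 to 5.51) in no alopecia skin and 5.74% (3.98 to 7.97) in WT skin. The 3 intervals overlap, and the ratio of shares was 1.07 (0.823 to 1.39) for alopecia over no alopecia, 0.926 (0.615 to 1.39) for alopecia over WT and 0.866 (0.612 to 1.22) for no alopecia over WT. Counted against all kept barcodes the shares were 1.27% in alopecia, 2.22% in no alopecia and 0.984% in WT skin, a log2 ratio of 1.17 for no alopecia over WT. Keratinocytes themselves were 23.9% in alopecia, 44.6% in no alopecia and 17.1% of kept barcodes in WT, so this second share moves with the make-up of the library. With each keratinocyte thinned to 2000 UMIs, 2.38% in alopecia, 2.30% in no alopecia and 2.68% in WT skin still met the rule.

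The cycling keratinocytes were deep cells, with a median of 16845 UMIs in alopecia, 17843 in no alopecia and 17231 in WT skin. The other keratinocytes had a median of 9370 UMIs in alopecia, 8905 in no alopecia and 8568.5 in WT skin. The median sum of Mki67, Top2a and Cdk1 was 21 UMIs in alopecia, 23 in no alopecia and 23 in WT cells. The highest cell had 85 in alopecia, 121 in no alopecia and 71 in WT. Just inside the limit, 5 cells in alopecia, 31 in no alopecia and 4 in WT had exactly 3 such UMIs. Just outside it, 13 keratinocytes in alopecia, 92 in no alopecia and 5 in WT had 2. Mki67 was detected in 61 of 63 cells in alopecia, 332 of 343 in no alopecia and 33 of 33 in WT. On the keratin side, 20 cells in alopecia, 58 in no alopecia and 11 in WT had a keratin share between 0.5% and 1%. A further 13 cycling barcodes in alopecia, 41 in no alopecia and 5 in WT had 0.25% to 0.5% and were left out.

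The label fits the data. Krt15, a keratin of basal and bulge cells that the rule did not use, had at least 1 UMI in 61 of 63 cycling keratinocytes in alopecia, 343 of 343 in no alopecia and 32 of 33 in WT skin. Its level was 5021 CPM in alopecia, 6124 CPM in no alopecia and 6550 CPM in WT (the gene's UMIs per 1000000 UMIs of the summed cells). Trp63, the transcription factor that keeps stratified epithelium, stood at 476 in alopecia, 481 in no alopecia and 497 CPM in WT. Col17a1, a hemidesmosome collagen, was at 712 in alopecia, 1034 in no alopecia and 805 CPM in WT. Ptprc, which encodes CD45, had no UMI in the alopecia and no alopecia cells and 4 UMIs in 1 WT cell. Summed markers of leukocytes were at 39.4 CPM in alopecia, 24.2 CPM in no alopecia and 167 CPM in WT cells. Those of fibroblasts were at 77.1 in alopecia, 137 in no alopecia and 68.6 CPM in WT. Hemoglobin and other red cell genes summed to 2944 CPM in alopecia cells, with 1 cell holding at least 5 such UMIs, and to 2.21 CPM in no alopecia and 10.9 CPM in WT cells.

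Most dividing cells of the alopecia and WT libraries lay outside the keratin limit. Among all kept barcodes, 236 (4.76%) in alopecia, 561 (3.62%) in no alopecia and 194 (5.78%) in WT skin had at least 3 UMIs of the cycling genes. The cycling keratinocytes were 26.7% (21.2 to 32.8) of these in alopecia, 61.1% (57.0 to 65.2) in no alopecia and 17.0% (12.0 to 23.1) in WT skin, so the no alopecia interval lies above both others. This share too moves with the make-up of the library. All keratinocytes were 23.9% of kept barcodes in alopecia, 44.6% in no alopecia and 17.1% in WT. The cycling barcodes below the keratin limit numbered 171 in alopecia, 211 in no alopecia and 160 in WT. At least 5 UMIs of genes of the hair matrix, inner root sheath or shaft (Msx2, Shh, Lef1, Hoxc13, Krt25, Krt27, Krt28, Krt71 and Krt35) were found in 155 of these 171 in alopecia, 174 of 211 in no alopecia and 147 of 160 in WT skin. The same genes reached 5 UMIs in only 4 of 63 cycling keratinocytes in alopecia, 14 of 343 in no alopecia and 0 of 33 in WT. The barcodes below the limit are no pure matrix set. The fibroblast genes Col3a1, Dcn and Lum reached 5 UMIs in 88 of 171 in alopecia, 102 of 211 in no alopecia and 87 of 160 in WT. Of the cycling keratinocytes 2 in alopecia, 10 in no alopecia and 0 in WT had as many.

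**Figure D1:**
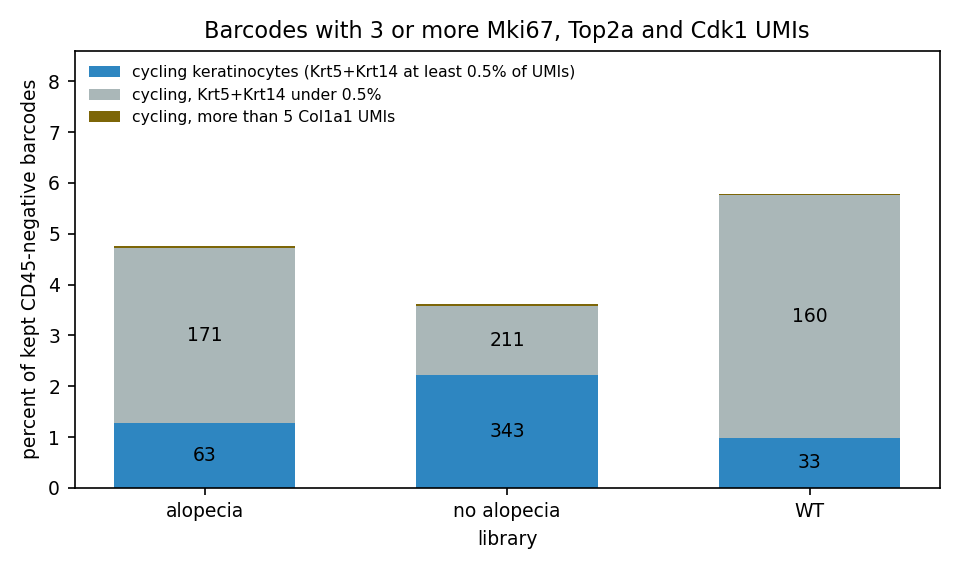
Percent of kept CD45-negative barcodes with at least 3 Mki67, Top2a and Cdk1 UMIs in each library, split into cycling keratinocytes, barcodes below the keratin limit and barcodes over the Col1a1 limit. Cycling keratinocytes are 1.27% in alopecia, 2.22% in no alopecia and 0.984% of kept barcodes in WT skin.

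Of the compartment markers, those of the matrix were nearly absent from the cycling keratinocytes, and Krt79, Krt10 and Cd34 were lower in them than in other keratinocytes in all 3 libraries. This set against other keratinocytes is a description, since the rule drew that line. Shh, the matrix signal, had 0 UMIs in alopecia and WT cycling keratinocytes and 3 UMIs in 3 no alopecia cells. The cycling barcodes below the keratin limit had 33.5 CPM in alopecia, 23.5 CPM in no alopecia and 33.5 CPM in WT skin. Msx2, a homeobox factor of the matrix, was at 4.28 CPM in alopecia, 11.1 CPM in no alopecia and 3.12 CPM in WT cycling keratinocytes, on 5 UMIs in alopecia, 75 in no alopecia and 2 in WT. Below the limit it was at 132 CPM in alopecia, 115 CPM in no alopecia and 166 CPM in WT. Only in no alopecia skin did any of them, 7 of 343, hold at least 3 Msx2 UMIs.

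Krt79 stood at 60.8 CPM (47.5 to 76.7) in the cycling keratinocytes of alopecia skin, 104 CPM (96.5 to 112) in no alopecia skin and 96.6 CPM (74.1 to 124) in WT skin. The other keratinocytes had 374 CPM in alopecia, 300 CPM in no alopecia and 492 CPM in WT. Fibroblast-like barcodes, with at least 20 Col1a1 UMIs and keratins under 0.5%, should lack Krt79, and their median depth was 5028 UMIs in alopecia, 3990.5 in no alopecia and 5499.5 in WT. They read 18.9 CPM in alopecia, 135 CPM in no alopecia and 3.5 CPM in WT, so in no alopecia skin the cycling keratinocytes read below them in CPM. At least 3 Krt79 UMIs were found in 5 of 63 cycling keratinocytes in alopecia (7.94%), 37 of 343 in no alopecia (10.8%) and 3 of 33 in WT skin (9.09%). Of the fibroblast-like barcodes 0.506% in alopecia, 1.11% in no alopecia and 0.301% in WT had as many. The cycling keratinocytes were deeper, with a median of 16845 UMIs in alopecia, 17843 in no alopecia and 17231 in WT. These levels and shares therefore do not compare like with like, and the part of free RNA in them was not tested. The summed level rests on few cells, and 1 cell gave 71.0% of the WT UMIs. With the highest cell of each library left out the log2 ratio of alopecia over WT is 0.45 in place of -0.67, and that of no alopecia over WT is 1.63 in place of 0.11.

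Krt10, the suprabasal keratin, was low in alopecia cells and rested on single cells in WT. It was at 96.8 CPM (79.8 to 116) in alopecia cycling keratinocytes, 444 CPM (428 to 460) in no alopecia and 717 CPM (653 to 785) in WT. The other keratinocytes had 739 CPM in alopecia, 969 CPM in no alopecia and 922 CPM in WT, and fibroblast-like barcodes 104 CPM in alopecia, 254 CPM in no alopecia and 63.0 CPM in WT. The alopecia interval holds the level of that library's fibroblast-like barcodes. At least 3 Krt10 UMIs were found in 12 of 63 cycling keratinocytes in alopecia (19.0%), 92 of 343 in no alopecia (26.8%) and 4 of 33 in WT (12.1%). Of fibroblast-like barcodes 1.69% in alopecia, 3.09% in no alopecia and 1.2% in WT had as many. Those barcodes had a median of only 5028 UMIs in alopecia, 3990.5 in no alopecia and 5499.5 in WT. The cycling keratinocytes had 16845 in alopecia, 17843 in no alopecia and 17231 in WT. Neither the CPM of these sets nor their shares at a raw limit of 3 UMIs therefore compare like with like. The part of free RNA in either was not tested. A single WT cell, the deepest at 62431 UMIs and with a keratin share of 0.79%, carried 85.0% of the WT UMIs, and single cells carried 33.6% in alopecia and 28.3% in no alopecia. Without the highest cell of each library the log2 ratio is -0.86 for alopecia over WT, where all cells give -2.89, and 1.43 for no alopecia over WT, where all cells give -0.69. With the keratin limit at 1%, which drops that cell, alopecia over WT is 1.39. Alopecia over no alopecia was -2.20 (-2.48 to -1.93).

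The bulge markers were sparse. Cd34, a bulge surface protein, was at 8.57 CPM in alopecia, 10.2 CPM in no alopecia and 1.56 CPM in WT cycling keratinocytes, on 10 UMIs in alopecia, 69 in no alopecia and 1 in WT. Other keratinocytes had 23.9 CPM in alopecia, 28.8 CPM in no alopecia and 42.3 CPM in WT. The 10 alopecia UMIs lay in 5 cells, 1 of which held 50% of them, and at least 3 UMIs were found in 1 cell in alopecia, 8 in no alopecia and 0 in WT. Lgr5, a Wnt pathway receptor of bulge and lower follicle cells, was at 63.4 CPM (49.8 to 79.6) in alopecia cycling keratinocytes, 17.4 CPM (14.4 to 20.8) in no alopecia and 10.9 CPM (4.38 to 22.5) in WT. These were 74 UMIs in 8 alopecia cells, 118 in 33 no alopecia cells and 7 in 2 WT cells. The highest alopecia cells held 24 and 23 of the 74. Other keratinocytes read 44.5 CPM in alopecia, 26.1 CPM in no alopecia and 43.1 CPM in WT. Fibroblast-like barcodes read 13.0 CPM in alopecia, 12.3 CPM in no alopecia and 16.0 CPM in WT. The WT interval holds that level, and the no alopecia level is little above it. Those barcodes were less deep than the cycling keratinocytes, and the part of free RNA was not tested. The log2 ratio was 1.87 (1.43 to 2.30) for alopecia over no alopecia and 2.54 (1.42 to 3.90) for alopecia over WT. Leaving out the highest cell of each library, which held 71.4% of the WT UMIs, gives 3.77 for alopecia over WT, and 2.25 in place of 0.67 for no alopecia over WT. With the keratin limit at 0.25% the alopecia over WT ratio is 0.37, under 1.5-fold.

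**Figure D2:**
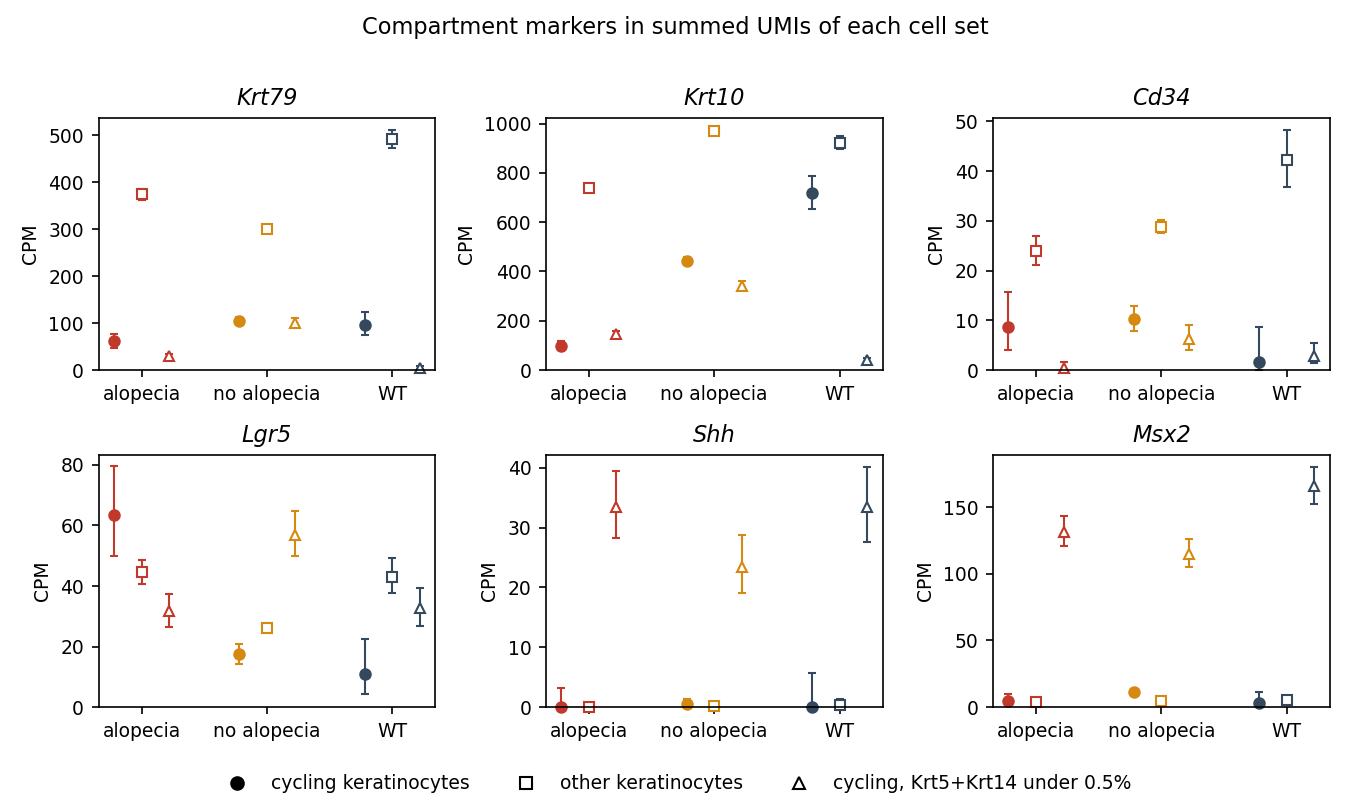
CPM (UMIs per 1000000, linear axes from 0) of the compartment markers in the summed cycling keratinocytes, other keratinocytes and cycling barcodes below the keratin limit of each library, with 95% counting intervals. Msx2 and Shh stand high only below the keratin limit (132 in alopecia, 115 in no alopecia and 166 CPM in WT for Msx2), and Krt79, Krt10 and Cd34 stand higher in other keratinocytes than in cycling ones.

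Counted per cell, most cycling keratinocytes carried none of these markers: 40 of 63 in alopecia (63.5%), 214 of 343 in no alopecia (62.4%) and 25 of 33 in WT skin (75.8%) had fewer than 3 UMIs of every one. The share among other keratinocytes was 63.7% in alopecia, 61.9% in no alopecia and 61.8% in WT. The other keratinocytes were less deep, with medians of 9370 UMIs against 16845 in alopecia, 8905 against 17843 in no alopecia and 8568.5 against 17231 in WT. A raw limit of 3 UMIs therefore does not compare the sets like with like. Of those marker-free cycling cells, 38 of 40 in alopecia, 212 of 214 in no alopecia and 24 of 25 in WT held at least 3 UMIs of Krt15. A single marker was present in 22 cells in alopecia, 101 in no alopecia and 8 in WT. More than 1 was present in 1 cell in alopecia, 28 in no alopecia and 0 in WT. Of the 28 no alopecia cells with several, 17 held Krt79 and Krt10 together.

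Turned round, the share of each compartment's keratinocytes that was cycling had intervals that held the share of the rest for most markers. The widest gap was that of Msx2 in no alopecia skin, on few and deep cells. There 7 of the 9 keratinocytes with at least 3 Msx2 UMIs (77.8%, 40.0 to 97.2) were cycling, against 4.87% of the rest, and their median depth was 30762 UMIs against 9125. Alopecia skin had 0 of 2 such cells cycling, and WT skin had no such cell. Among keratinocytes with at least 3 Krt79 UMIs, 5 of 132 (3.79%, 1.24 to 8.62) in alopecia, 37 of 623 (5.94%, 4.22 to 8.09) in no alopecia and 3 of 73 (4.11%, 0.856 to 11.5) in WT skin were cycling. Of the rest, 5.50% in alopecia, 4.87% in no alopecia and 5.98% in WT were. For Krt10 the shares were 12 of 238 (5.04%) in alopecia, 92 of 1779 (5.17%) in no alopecia and 4 of 107 (3.74%) in WT. Of the rest, 5.38% in alopecia, 4.90% in no alopecia and 6.20% in WT were cycling, although Krt10-bearing cells were deeper (in alopecia a median of 12697.5 UMIs against 9065.5). Krt1, the partner keratin of Krt10, gave 3.8% in alopecia, 3.63% in no alopecia and 3.03% in WT. The rest gave 5.59% in alopecia, 5.29% in no alopecia and 6.09% in WT. In no alopecia skin the Krt1 intervals of 2.70 to 4.77 with at least 3 UMIs and 4.72 to 5.92 for the rest barely overlap.

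Among keratinocytes with at least 3 Cd34 UMIs, 1 of 43 in alopecia (2.33%), 8 of 285 in no alopecia (2.81%, 1.22 to 5.46) and 0 of 31 in WT skin were cycling. The WT count of 0 allows a share of up to 9.68% (3 of 31 cells), and its exact interval reaches 11.2%. Of the rest, 5.42% in alopecia, 5.06% in no alopecia and 6.07% in WT were. Lgr5-bearing keratinocytes were cycling in 6 of 60 cases in alopecia (10.0%, 3.76 to 20.5), 15 of 255 in no alopecia (5.88%, 3.33 to 9.52) and 1 of 25 in WT skin (4%). The rest stood at 5.06% in alopecia, 4.93% in no alopecia and 5.82% in WT. For Krt15, which most keratinocytes carried, the shares were 5.80% (4.45 to 7.42) in alopecia, 5.18% (4.66 to 5.75) in no alopecia and 6.52% (4.50 to 9.08) in WT. Keratinocytes with fewer than 3 Krt15 UMIs stood at 2.37% (0.649 to 5.95) in alopecia, 0.612% (0.0742 to 2.19) in no alopecia and 1.19% (0.0301 to 6.46) in WT, and they were less deep in each library. Krt17, a keratin of the outer root sheath and of activated epidermis, also gave wide gaps. Of its bearers, 41 of 607 (6.75%, 4.89 to 9.05) in alopecia, 258 of 3674 (7.02%, 6.22 to 7.90) in no alopecia and 21 of 310 (6.77%, 4.24 to 10.2) in WT were cycling. The rest stood at 3.8% (2.40 to 5.70) in alopecia, 2.63% (2.11 to 3.24) in no alopecia and 4.53% (2.36 to 7.78) in WT. Only in no alopecia skin do the Krt17 intervals stand apart, and Krt17-bearing cells were deeper there (median 10667 UMIs against 7839). The part of depth in this was not tested. For Krt6a, a keratin of the inner layers of the outer root sheath and of wounded epidermis, the shares were 5 of 145 (3.45%) in alopecia, 14 of 144 (9.72%, 5.42 to 15.8) in no alopecia and 0 of 67 in WT, which allows up to 4.48% (3 of 67 cells) and has an exact interval that reaches 5.36%. The rest stood at 5.57% in alopecia, 4.87% in no alopecia and 6.50% in WT.

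**Figure D3:**
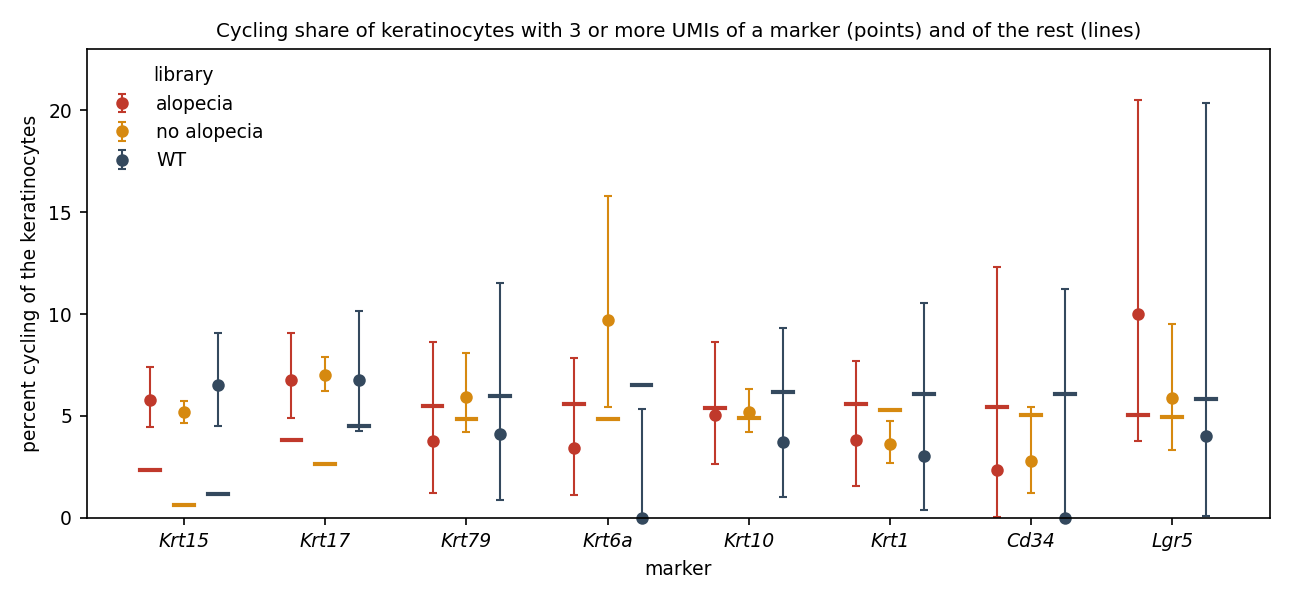
Percent of keratinocytes that were cycling among those with at least 3 UMIs of each marker (points, with exact 95% intervals) and among the rest (short lines), per library. Most intervals hold the line of their library. Those of Krt15 in all 3 libraries, of Krt17 in alopecia and no alopecia skin and of Krt6a in no alopecia skin lie above it, and those of Krt1 in no alopecia skin and Krt6a in WT skin lie below it.

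The G2 and mitosis list outweighed the S phase list in most cycling keratinocytes, which their selection favours. A list of 63 genes of G2 and mitosis without the rule's own genes took a median of 1.03% of a cell's UMIs in alopecia, 1.12% in no alopecia and 1.13% in WT skin. A list of 57 genes of S phase took 0.209% in alopecia, 0.132% in no alopecia and 0.230% in WT. The S list outweighed the G2 and mitosis list in 12 of 63 cells in alopecia (19.0%, 10.2 to 30.9), 26 of 343 in no alopecia (7.58%, 5.01 to 10.9) and 4 of 33 in WT skin (12.1%, 3.40 to 28.2). The lists hold different genes and equal shares are no phase call, since the S list outweighed the other in only 17.2% of other keratinocytes in alopecia, 14.1% in no alopecia and 18.3% in WT too. In the cycling barcodes below the keratin limit this was so in 33.3% in alopecia, 31.3% in no alopecia and 28.8% in WT. Their median depth was 25827 UMIs in alopecia, 19793 in no alopecia and 21505.5 in WT. The S list was also lower in the summed cycling keratinocytes than in those barcodes, with a median log2 ratio of -0.53 in alopecia, -1.24 in no alopecia and -0.95 in WT. Of its 57 genes, 24 in alopecia, 52 in no alopecia and 43 in WT were at least 1.5-fold lower, where 24.7% of all genes tested in alopecia, 27.2% in no alopecia and 34.7% in WT were.

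**Figure D4:**
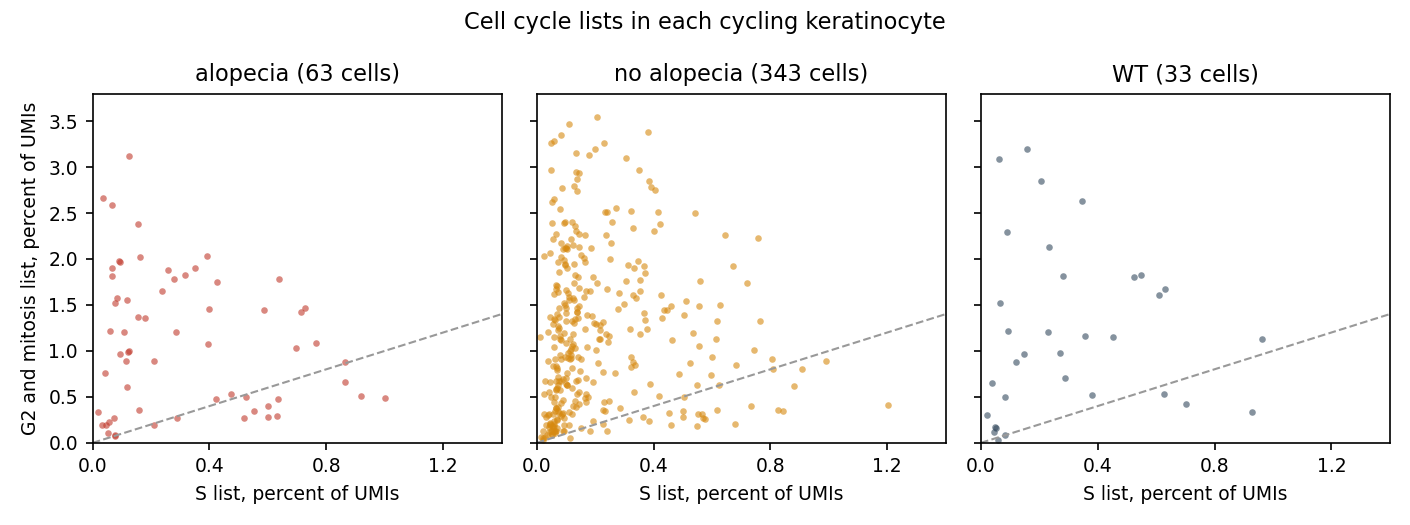
Each point is 1 cycling keratinocyte, with the S list on the horizontal and the G2 and mitosis list on the vertical axis, both in percent of its UMIs; the dashed line marks equal shares. Cells below the line number 12 of 63 in alopecia, 26 of 343 in no alopecia and 4 of 33 in WT skin.

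Replication genes were higher in the cycling keratinocytes of alopecia skin than in those of no alopecia skin, while mitosis genes stood level. Of 55 S phase genes with at least 50 summed counts, 30 were at least 1.5-fold higher in alopecia and 0 were lower, with a median log2 ratio of 0.61, against 11.1% of all 9641 genes tested higher, 10.8% lower and a median of 0.03. Rrm2, a subunit of the ribonucleotide reductase that makes deoxynucleotides, was at 109 CPM in alopecia, 53.4 CPM in no alopecia and 77.9 CPM in WT cells. Mcm6, a subunit of the replicative helicase, was at 108 in alopecia, 50.5 in no alopecia and 76.3 CPM in WT. Hells, a chromatin remodeller of replicating cells, was at 74.5 in alopecia, 30.8 in no alopecia and 43.6 CPM in WT. E2f1, the E2F factor itself, was at 32.6 in alopecia, 13.1 in no alopecia and 18.7 CPM in WT. The log2 ratio of alopecia over no alopecia was 1.03 (0.72 to 1.32) for Rrm2 and 1.09 (0.79 to 1.39) for Mcm6, and both WT levels lie between those of the other libraries. In the other keratinocytes the S list had a median of 0.07, with 3 of 51 genes higher and 2 lower, where 12.3% of all genes were higher and 6.07% lower.

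Of the 63 G2 and mitosis genes, 2 were higher and 0 lower in alopecia than in no alopecia cells, with a median of -0.05. Ccnb1, the mitotic cyclin, was at 131 in alopecia, 138 in no alopecia and 151 CPM in WT. Plk1, a mitotic kinase, was at 57.4 in alopecia, 50 in no alopecia and 42.1 CPM in WT, and for both genes the intervals overlap. Cdc20, an activator of the anaphase-promoting complex, was at 209 in alopecia, 250 in no alopecia and 252 CPM in WT. Against WT, 9 of 42 S phase genes were higher and 0 lower in alopecia (median 0.25, background 8.58% and 8.41%), while 3 of 53 were higher and 15 lower in no alopecia (median -0.36, background 11.6% and 9.8%). Among regulators of cell cycle entry, Ccnd1, the cyclin of G1, was at 98.5 CPM in alopecia, 43.6 CPM in no alopecia and 49.9 CPM in WT cells. Cdkn1a, the p21 inhibitor, was at 334 in alopecia, 467 in no alopecia and 575 CPM in WT. Cdkn2d, the p19 inhibitor of the INK4 family, was at 120 in alopecia, 178 in no alopecia and 251 CPM in WT. For both inhibitors the alopecia interval lies below the no alopecia and WT intervals.

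Pttg1 (chr11:43420250-43426251, minus strand, GRCm38), which encodes securin, the inhibitor of separase, had the largest log2 ratio of the mitosis genes against WT. It was at 220 CPM (194 to 249) in alopecia cycling keratinocytes, 235 CPM (224 to 247) in no alopecia and 37.4 CPM (24 to 55.6) in WT. It had a UMI in 46 of 63 cells in alopecia, 283 of 343 in no alopecia and 15 of 33 in WT. Both UP_Del libraries are high and WT is low. The log2 ratio was 2.56 (1.95 to 3.23) for alopecia over WT and 2.65 (2.07 to 3.30) for no alopecia over WT, where the medians of the G2 and mitosis list were -0.19 and -0.15. The cycling barcodes below the keratin limit showed the same order at 77.6 in alopecia, 73.7 in no alopecia and 15.1 CPM in WT. The other keratinocytes did not, at 13.7 in alopecia, 19.7 in no alopecia and 34.5 CPM in WT. Over all alternatives the ratio ran between 1.84 and 2.99 for alopecia and between 1.52 and 3.02 for no alopecia. These comparisons share the WT library.

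Immediate early genes, transcription factors and feedback regulators that respond to signals and to tissue dissociation within minutes to hours, were lower in the cycling keratinocytes of alopecia skin. Of 27 such genes, 18 were at least 1.5-fold lower and 1 higher than in no alopecia cells (median log2 ratio -0.72), where 10.8% of all genes were lower and 11.1% higher. Against WT cells 22 were lower and 0 higher (median -0.89), where 8.41% of all genes were lower and 8.58% higher. Zfp36, which hastens mRNA decay, was at 930 CPM in alopecia, 2201 CPM in no alopecia and 2178 CPM in WT cells. Egr1 was at 979 in alopecia, 2090 in no alopecia and 2004 CPM in WT. Atf3, a stress-induced factor, was at 1247 in alopecia, 2236 in no alopecia and 3269 CPM in WT. Of the heat shock genes, Hsph1 was at 77.1 in alopecia, 44.7 in no alopecia and 70.1 CPM in WT, and Hspa1b at 230 in alopecia, 187 in no alopecia and 301 CPM in WT. Per cell, the list took a median of 0.596% of UMIs in alopecia (quartiles 0.176 to 2.13), 2.11% in no alopecia (1.26 to 3.23) and 1.79% in WT (0.388 to 3.95), so cells of the 3 libraries overlap. The other keratinocytes had medians of -0.62 and -0.50 in the same contrasts, with 16 and 12 of 27 genes lower (all genes tested there, 6.07% and 3.36% lower, 12.3% and 2.83% higher). The median mitochondrial share of the cycling keratinocytes was 2.11% in alopecia, 1.35% in no alopecia and 1.48% in WT, and the part of handling in this result was not tested.

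MHC class I genes, which present peptides to CD8 T cells and whose low level is part of the immune privilege of the growing hair follicle, were far higher in the cycling keratinocytes than in the cycling barcodes below the keratin limit in every library. H2-K1, a class I heavy chain, was at 1290 CPM in alopecia, 1925 CPM in no alopecia and 1748 CPM in WT cycling keratinocytes. Other keratinocytes had 1099 CPM in alopecia, 1468 CPM in no alopecia and 1102 CPM in WT. The cycling barcodes below the keratin limit read 104 in alopecia, 197 in no alopecia and 65.8 CPM in WT. B2m, the invariant light chain, was at 1114 in alopecia, 1440 in no alopecia and 1348 CPM in WT. Below the limit it was at 92.7 in alopecia, 169 in no alopecia and 47.7 CPM in WT. Of the class I genes tested, 16 of 16 in alopecia, 17 of 17 in no alopecia and 16 of 16 in WT skin were at least 1.5-fold higher in cycling keratinocytes than below the limit, where 14.8% of all genes in alopecia, 19.1% in no alopecia and 15.9% in WT were. The median log2 ratio was 3.61 in alopecia, 3.16 in no alopecia and 4.71 in WT. Set against other keratinocytes, 3 of 17 class I genes in alopecia, 4 of 17 in no alopecia and 9 of 17 in WT were higher and 0 lower, where 16.5% of all genes in alopecia, 13.1% in no alopecia and 14.4% in WT were higher. The medians were 0.24 in alopecia, 0.39 in no alopecia and 0.61 in WT. The rule separates these sets, so this is a description.

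Between libraries, 5 of 17 class I genes were at least 1.5-fold lower and 0 higher in alopecia than in no alopecia cycling keratinocytes (median -0.53), where 10.8% of all genes were lower. Against WT 7 of 16 were lower (median -0.49), where 8.41% of all genes were. No alopecia over WT had a median of -0.05, with 0 genes past 1.5-fold. The median share of class I UMIs per cell was 0.565% in alopecia, 0.763% in no alopecia and 0.710% in WT. In the other keratinocytes the list's median was -0.35 for alopecia over no alopecia, -0.20 for alopecia over WT and 0.21 for no alopecia over WT. There 1 gene was lower in each alopecia contrast and 0 in the last, in which 14.2% of all genes were lower and 7.4% higher. Of the interferon gamma response list, 1 of 10 genes tested was higher and 5 lower in alopecia than in no alopecia cells (median -0.63), where 11.1% of all genes were higher and 10.8% lower, so the 1 higher gene is at that share. Against WT 0 of 6 were higher and 4 lower (median -0.75), where 8.58% and 8.41% of all genes were. Irf1, an early interferon-induced factor, was at 54.0 CPM in alopecia, 161 CPM in no alopecia and 136 CPM in WT cells. Cxcl10, a chemokine that attracts T cells, was at 18.0 in alopecia, 40.8 in no alopecia and 12.5 CPM in WT, where 1 cell held 87.5% of the WT UMIs.

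Genes of the layers and compartments differed in a mixed way. Of 13 suprabasal genes, 6 were lower and 0 higher in alopecia than in no alopecia cycling keratinocytes (median -0.55), where 10.8% of all genes were lower and 11.1% higher. Against WT 7 of 11 were lower (median -1.37), where 8.41% of all genes were, although this median is 0.80 with the keratin limit at 1%. Krt1 was at 75.4 in alopecia, 181 in no alopecia and 195 CPM in WT, and 1 WT cell held 73.6% of its UMIs. Krtdap, a suprabasal secreted protein, was at 123 in alopecia, 202 in no alopecia and 349 CPM in WT, and 1 WT cell held 96.9%. Basal adhesion genes varied less, with 1 of 12 lower and 0 higher in alopecia than in no alopecia cells (median -0.35), near the 10.8% of all genes lower. Thbs1, a matrix glycoprotein of basal cells, was at 692 in alopecia, 2121 in no alopecia and 1569 CPM in WT. Cxcl14, a chemokine made by keratinocytes, was at 437 in alopecia, 941 in no alopecia and 1056 CPM in WT.

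Follicle genes were split between directions. Of 14 bulge genes, 4 were higher and 1 lower in alopecia than in no alopecia cells (median 0.14), and of 11 outer root sheath genes 5 were higher and 3 lower (median 0.49), where 11.1% of all genes were higher and 10.8% lower. The 1 lower bulge gene is no more than that share. Lhx2, a stem cell homeobox factor, was at 59.1 CPM in alopecia, 27.0 CPM in no alopecia and 7.79 CPM in WT cells. It had a UMI in 13 cells in alopecia, 56 in no alopecia and 4 in WT. Barx2, a homeobox factor of the follicle, was at 293 in alopecia, 129 in no alopecia and 221 CPM in WT. It was seen in 56 of 63 cells in alopecia, 247 of 343 in no alopecia and 26 of 33 in WT. Sostdc1, a BMP and Wnt antagonist, was at 260 in alopecia, 126 in no alopecia and 243 CPM in WT. Lrig1, a receptor inhibitor of upper follicle stem cells, was at 161 in alopecia, 89.9 in no alopecia and 123 CPM in WT. Gjb2, a gap junction subunit, was at 117 CPM in 11 alopecia cells, 33.6 CPM in 23 no alopecia cells and 68.6 CPM in 3 WT cells. For Barx2, Sostdc1 and Gjb2 the alopecia and WT cells are high and the no alopecia cells low. Other keratinocytes had the same order, at 272 in alopecia, 111 in no alopecia and 256 CPM in WT for Barx2. For Sostdc1 they had 235 in alopecia, 146 in no alopecia and 213 CPM in WT, and for Gjb2 115 in alopecia, 6.08 in no alopecia and 82.7 CPM in WT.

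**Figure D5:**
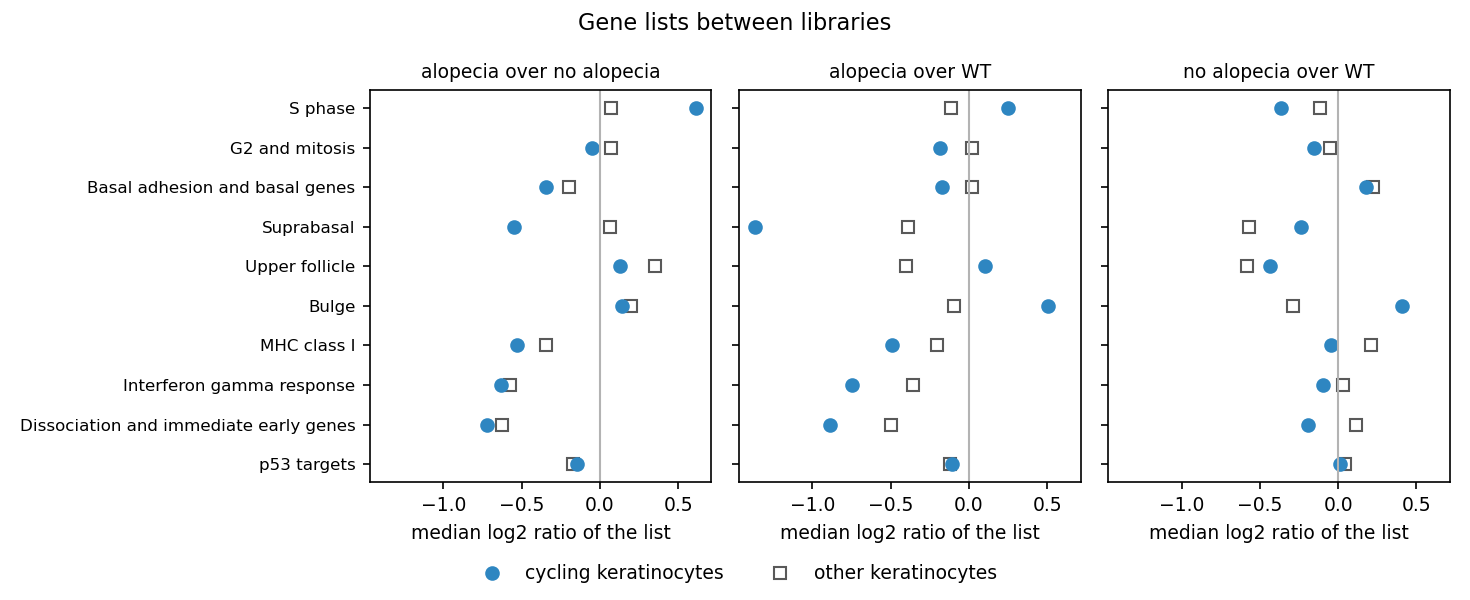
Median log2 ratio of each gene list between libraries, in cycling keratinocytes and in other keratinocytes. In alopecia over no alopecia the S phase list is at 0.61 in cycling and 0.07 in other keratinocytes, while the immediate early list is low in both (-0.72 and -0.62).

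Across all genes, 1071 of 9641 (11.1%) were at least 1.5-fold higher and 1046 (10.8%) lower in alopecia than in no alopecia cycling keratinocytes, and for 232 and 202 of them the whole interval lay beyond 1.5-fold. Among the genes furthest from 1 by their interval, Fkbp5, a glucocorticoid-induced co-chaperone, was at 80.5 CPM in alopecia and 11.8 CPM in no alopecia cells, a log2 ratio of 2.77 (2.33 to 3.22). It had a UMI in 37 of 63 cells in alopecia and 51 of 343 in no alopecia, and no cell held more than 7.45% of the UMIs. WT cells stood at 88.8 CPM, so no alopecia is the low library, and the other keratinocytes gave like ratios (2.59 for alopecia over no alopecia and -3.02 for no alopecia over WT). Slc7a8, an amino acid transporter, was at 53.1 in alopecia and 2.95 CPM in no alopecia, and Tbx1, a T-box factor, at 67.7 in alopecia and 16.7 CPM in no alopecia. Pdzrn3, Kalrn, Adgrl3 and Bgn, the proteoglycan biglycan, had log2 ratios between 2.02 and 2.61. The other keratinocytes were higher in alopecia too, with log2 ratios of 2.14, 2.67, 2.10 and 1.52 in the order named. For Slc7a8 they gave 3.26 and for Tbx1 1.18. Camk1d, a calmodulin-dependent kinase, was at 3079 in alopecia and 746 CPM in no alopecia (log2 ratio 2.04), but 1 cell held 46.2% of its alopecia UMIs and the ratio is 1.24 without the highest cells. Nppb, a natriuretic peptide, was at 58.3 in alopecia and 2.21 CPM in no alopecia and lay in 4 alopecia cells, with 54.4% of its UMIs in 1 of them. In the other keratinocytes the log2 ratio was 1.68 for Camk1d and 0.15 for Nppb.

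On the lower side in alopecia, Cst6, which encodes the epidermal protease inhibitor cystatin M/E, was at 37.7 CPM in alopecia and 304 CPM in no alopecia cells, a log2 ratio of -3.01 (-3.48 to -2.58). It had a UMI in 24 of 63 cells in alopecia and 124 of 343 in no alopecia. Thinned to 2000 UMIs per cell the ratio is -1.32. The other keratinocytes had no such gap, at 440 in alopecia and 354 CPM in no alopecia. Krt77 (55.7 in alopecia and 195 CPM in no alopecia) and Ly6g6c (11.1 in alopecia and 66.6 CPM in no alopecia) were likewise lower in cycling keratinocytes, where the other keratinocytes gave log2 ratios of -0.03 and -0.16. Krt77 rests on few cells, since 1 cell held 46.2% of the alopecia and 1 cell 47.9% of the no alopecia UMIs, and its log2 ratio of -1.81 is 0.093 with the keratin limit at 1% and -0.21 thinned to 2000 UMIs. Ly6g6c has a log2 ratio of -2.58, which is 0.58 when cells are thinned to 2000 UMIs and -3.17 without the highest cells. Ch25h, which makes the oxysterol 25-hydroxycholesterol, was at 29.1 in alopecia and 240 CPM in no alopecia. Tnfaip3, the NF-kappaB inhibitor A20, was at 92.5 in alopecia and 380 CPM in no alopecia. Icam1, a leukocyte adhesion ligand, was at 72.8 in alopecia and 269 CPM in no alopecia, and Fas, a death receptor, at 36.8 in alopecia and 120 CPM in no alopecia. Thinned to 2000 UMIs per cell the log2 ratio of Fas is -0.13 in place of -1.71. Thinning with the rule applied again leaves 28 alopecia and 153 no alopecia cells. The alopecia cells then hold few or no counts of Cst6, Krt77, Ly6g6c and Fas. A sum of 0 was set to 3 counts, so the thinned ratios of these genes are no measure of the difference. For Ch25h, Tnfaip3, Icam1 and Fas the other keratinocytes were lower too, with log2 ratios of -2.22, -1.39, -1.35 and -1.25 in the order named. The ratio of Ch25h in cycling keratinocytes is -3.04, and -3.80 without the highest cells. Krt16, a keratin of stressed epidermis, was at 49.7 in alopecia and 171 CPM in no alopecia.

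In alopecia over WT, 470 of 5480 genes (8.58%) were at least 1.5-fold higher and 461 (8.41%) lower. Beside Pttg1, Fabp5, an epidermal fatty acid binding protein, was at 383 CPM in alopecia and 74.8 CPM in WT cells (log2 ratio 2.36, 1.92 to 2.82), and was seen in 23 of 63 cells in alopecia and 8 of 33 in WT. Lhx2 and Bgn had log2 ratios of 2.92 and 3.08 on 5 WT UMIs each. With the keratin limit at 0.25% the ratio of Bgn is 0.54, under 1.5-fold, and with the limit at 1% that of Lhx2 is 1.55. Sox5, a SOX factor, had 3.68, or 3.01 without the highest cells. Chit1, a chitinase, was at 5.14 in alopecia and 81.0 CPM in WT, with a UMI in 4 alopecia and 15 WT cells, and was lower in the other keratinocytes too (-2.66). The other low genes rest on single WT cells. Tslp, an epithelial cytokine, had 97.5% of its WT UMIs in 1 cell, Mt4, a metallothionein of differentiating epithelium, 80.5%, and Ly6g6c 68.0%. Without the highest cells Mt4 is at -3.02 in place of -3.69 and Ly6g6c at -2.81 in place of -3.45.

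In no alopecia over WT, 1094 of 9451 genes (11.6%) were at least 1.5-fold higher and 926 (9.8%) lower. Arc, an immediate early gene, was at 129 CPM in no alopecia and 28.0 CPM in WT cells, and Gadd45g, a stress-induced growth arrest gene, at 78.8 in no alopecia and 20.3 CPM in WT. Krt16 was at 171 in no alopecia and 54.5 CPM in WT, and Akr1c18, a steroid-metabolizing reductase, at 66.2 in no alopecia and 9.35 CPM in WT. Thinned to 2000 UMIs per cell the log2 ratio is 0.35 in place of 1.65 for Krt16, -0.35 in place of 2.82 for Akr1c18, and it is -0.13 for Gadd45g. The rule applied again leaves 15 WT cells with few or no counts of these genes. A sum of 0 was set to 3 counts, so the thinned values are no measure of the difference. Arc, Gadd45g, Krt16 and Akr1c18 were each seen in 2 to 11 WT cells. Without the highest cells the log2 ratio of Akr1c18 is 4.02 in place of 2.82 and that of Arc 2.80 in place of 2.20. Fkbp5 was at 11.8 in no alopecia and 88.8 CPM in WT (log2 ratio -2.91) and Chit1 at 16.1 in no alopecia and 81.0 CPM in WT (-2.33), both spread over many cells. Tslp (15.3 in no alopecia and 126 CPM in WT), Ccl2, a monocyte chemokine (7.52 in no alopecia and 67.0 CPM in WT), and Pthlh, a parathyroid hormone-like peptide (12.4 in no alopecia and 99.7 CPM in WT), were lower through 1 or a few WT cells. Without the highest cells their log2 ratios are 2.05 in place of -3.04, -2.11 in place of -3.16 and -0.28 in place of -3.01.

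Set against the other keratinocytes of their own library, which describes the rule more than the cells, 554 of 8994 genes tested in every library were at least 1.5-fold higher in cycling keratinocytes in all 3, 76 of them in the S or mitosis lists, and 245 were lower in all 3. Per library 16.5% of genes were higher and 15.8% lower in alopecia, 13.1% and 9.96% in no alopecia and 14.4% and 17% in WT skin. Among the lower genes were Wfdc3, Aldoc, a glycolytic aldolase, Ramp1, a receptor partner of calcitonin-family peptides, and Grem1, a BMP antagonist, next to Krt79, Cd34 and Krt24. Of the suprabasal genes, 10 of 13 in alopecia, 8 of 14 in no alopecia and 7 of 13 in WT skin were lower. Of the basal adhesion genes, 1 of 12 in alopecia, 0 of 12 in no alopecia and 1 of 12 in WT were lower and none was higher.

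The same rule applied to the CD45-positive sort, which should hold no keratinocytes, met 22 barcodes in alopecia, 13 in no alopecia and 15 in WT skin (of kept barcodes, 0.239% in alopecia, 0.397% in no alopecia and 0.231% in WT). Doublet scoring of the CD45-negative libraries marked 7 of 63 cycling keratinocytes in alopecia (11.1%), 47 of 343 in no alopecia (13.7%) and 7 of 33 in WT skin (21.2%). Of all keratinocytes it marked 3.12% in alopecia, 9.98% in no alopecia and 2.09% in WT. The share of barcodes to mark was set from library size, at 2.85% in alopecia, 6.70% in no alopecia and 1.84% in WT. Differences between libraries in marked shares are therefore no measured doublet rates. Marked barcodes were kept. Without them the cycling share of keratinocytes would be 4.87% in alopecia, 4.76% in no alopecia and 4.62% in WT.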

How the data were processed

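The deposited files hold raw UMI counts per gene and barcode for 6 droplet libraries, which the authors made with Cell Ranger 7.1.0 on mm10, per the submitters' processing notes. The 3 CD45-negative libraries were used and hold 41014981 UMIs in alopecia, 116334373 in no alopecia and 25735064 in WT skin. Counts were summed over the cells of a set (1167363, 6785380 and 641844 UMIs for the cycling keratinocytes) and divided by the total to give CPM. Each group is 1 library, so nothing was tested: CPM carry exact Poisson, shares exact Clopper-Pearson and ratios of CPM exact conditional binomial 95% intervals, and ratios of shares log-binomial ones. A gene needed a summed count of 50 over both sets, and a sum of 0 was set to 3 counts. Genes named between libraries had at least 50 CPM in the higher library and were taken in order of whichever interval bound lay closer to 1 (10 each way for alopecia over no alopecia, 5 each way otherwise). Mitochondrial, ribosomal, hemoglobin, antigen receptor, sex-linked marker (Xist, Y), unnamed and rule genes were left out, and so were genes at least 20 times higher in the library's barcodes under 0.5% keratin. Some genes that the rule or a list gives are not reported here. Members, lists and this rule were chosen with earlier results of these data known. Thinning drew 2000 UMIs per cell without replacement and left out shallower cells. For cycling shares and for ratios between libraries the rule was then applied again to the thinned counts. Doublets were scored with Scrublet in scanpy 1.11.5. The highest scores were marked, up to a share of 0.4% for every 1000 barcodes in the library. Promoters are RefSeq's for GRCm38.p6. The scripts (Python 3.11.15, numpy 2.4.6, scipy 1.17.1, pandas 2.3.3, matplotlib 3.10.9) were tested on simulated data.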

Additional observations from a re-analysis of the deposited data

Results flagged for a closer look

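Lgr5 stood on different sides of the other keratinocytes in different libraries. The log2 ratio of cycling over other keratinocytes was 0.51 in alopecia, -0.59 in no alopecia and -1.98 in WT skin, with counting intervals that leave out 0 on opposite sides. The difference between libraries was not tested, since each group is 1 library. The UMIs lay in 8 alopecia, 33 no alopecia and 2 WT cells, and the highest alopecia cells held 24 and 23 of them. The intervals count UMIs and take no account of this spread over cells, for which they are too narrow.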

How the results depend on the processing

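No paired analysis was possible because each group is 1 library. Thinning to 5000 UMIs and leaving out the cell with the most UMIs were chosen after seeing the data. Of the alternatives, 31 of 33 cycling shares, 69 of 84 gene counts, 538 of 645 single genes (given where at least 10 counts stand behind them) and 635 of 685 list medians stayed within a limit around the main value. It was the counting interval for shares and single genes, 1.5-fold for gene counts and a fixed distance for list medians. For main values under 1.5-fold the sign was free to change and no reversal was counted. Without marked doublets, for example, the cycling share was 4.87% in alopecia and 4.76% in no alopecia, above the 4.62% in WT. With all cells both were below WT. Against all kept barcodes the log2 ratio of the cycling share was -0.80 for alopecia over no alopecia and 1.17 for no alopecia over WT. Thinned to 2000 UMIs, which leaves fewer counts, 110 genes were higher and 230 lower in alopecia over no alopecia, 22 and 30 in alopecia over WT, and 239 and 129 in no alopecia over WT. A summed count of 100, which tests fewer genes, left 664 higher in alopecia over no alopecia, 140 higher and 232 lower in alopecia over WT, and 680 and 564 in no alopecia over WT. A summed count of 20 gave 1117 higher and 920 lower in alopecia over WT and 1414 lower in no alopecia over WT. With keratins at least 1%, 246 were higher in alopecia over WT.

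Directions reversed as follows, and the cause was not tested. With keratins at least 0.25%, Krt79 was at 0.18 and Msx2 at 0.96 in alopecia over no alopecia, Krt79 at 0.61 in alopecia over WT and Lgr5 at -1.12 in no alopecia over WT. With keratins at least 1%, Krt77 was at 0.093 in alopecia over no alopecia, Krt10 at 1.39, Ly6g6c at 0.049 and the suprabasal median at 0.80 in alopecia over WT, and Krt10 at 2.62 and Pthlh at 1.45 in no alopecia over WT. Thinned to 2000 UMIs, Ly6g6c was at 0.58 in alopecia over no alopecia, and Akr1c18 at -0.35 and Gadd45g at -0.13 in no alopecia over WT. These thinned values show no direction. The rule was applied again after thinning, which left 28 alopecia, 153 no alopecia and 15 WT cells. The lower library then holds few or no counts of the gene, and a sum of 0 was set to 3 counts. With cycling genes at least 2 UMIs, Cd34 was at -0.094 in alopecia over WT. As a mean over cells, Krt10 was at 0.20 in no alopecia over WT. Without the highest cell, Krt79 was at 0.45 in alopecia over WT, and Krt10 at 1.43 and Tslp at 2.05 in no alopecia over WT. The S phase median of alopecia over no alopecia ran between 0.50 and 0.65, the immediate early median between -1.001 and -0.40 and the class I median between -0.64 and -0.44. The 33 WT cells limit every comparison with WT.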

Other observations

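The cycling keratinocytes also differed from the cycling barcodes below the keratin limit in genes that hold cells to the basement membrane. Of 12 basal adhesion genes, 11 in alopecia, 11 in no alopecia and 10 in WT skin were at least 1.5-fold higher in cycling keratinocytes, with median log2 ratios of 2.10 in alopecia, 1.90 in no alopecia and 2.18 in WT. Of all genes 14.8% in alopecia, 19.1% in no alopecia and 15.9% in WT were higher. Of the hair matrix and germ list, 14 of 17 genes tested in alopecia, 13 of 17 in no alopecia and 13 of 16 in WT skin were lower, with medians of -2.64 in alopecia, -3.01 in no alopecia and -3.59 in WT. Of all genes 24.7% in alopecia, 27.2% in no alopecia and 34.7% in WT were lower. Krt25, an inner root sheath keratin, was at 7.71 CPM in alopecia, 26.8 CPM in no alopecia and 0 UMIs in WT cycling keratinocytes, against 770 in alopecia, 579 in no alopecia and 576 CPM in WT below the limit. Lef1, a Wnt effector of the matrix, was at 15.4 CPM in alopecia, 5.60 CPM in no alopecia and 0 UMIs in WT, against 239 in alopecia, 205 in no alopecia and 341 CPM in WT below the limit.

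Lists tied to damage and growth held genes in both directions. Of 17 p53 targets, 2 were at least 1.5-fold higher and 5 lower in alopecia than in no alopecia cycling keratinocytes (median -0.14). For 19 apoptosis genes the counts were 3 and 4 (median 0.03), and for 15 ligands and growth signals of the EGF receptor 2 and 5 (median -0.33). Of all genes 11.1% were higher and 10.8% lower, so the counts of higher genes lie near that share. Of the sebaceous genes tested against WT, 3 of 5 were higher and 0 lower in alopecia (median 1.03) and 5 of 7 higher and 0 lower in no alopecia (median 0.98), where 8.58% of all genes were higher in alopecia and 11.6% in no alopecia. The list holds 16 genes, 7 of which had 0 UMIs in WT cells, and the summed count limit can be met through 1 library alone. In the other keratinocytes the list's median was 0.12 for alopecia over WT and 0.04 for no alopecia over WT. Levels were low: Scd1, a lipid desaturase, was at 30.8 CPM in alopecia, 62.9 CPM in no alopecia and 24.9 CPM in WT cells. Tnc, the matrix protein tenascin C, was at 40.3 CPM in 10 alopecia cells, 9.14 CPM in 19 no alopecia cells and 32.7 CPM in 3 WT cells, with 76.2% of the WT UMIs in 1 cell.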
